A study of Bos taurus with 6 samples.

Results

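Decorin (DCN, ENSBTAG00000003505) and SPARC (ENSBTAG00000014835) were described in cultured cells of bovine muscle, as 2 genes of the 27607 identifiers of the count table. They were chosen by identifier as glycoproteins of the extracellular matrix, with their counts in fibro-adipogenic progenitors (FAPs) and in the satellite cells (SCs) already known, so that their difference between the cell types is described here without a test. The names DCN and SPARC were given with the identifiers, and no file used here pairs other identifiers with names. Decorin is a small leucine-rich proteoglycan that binds collagen fibrils and limits their lateral growth, and it also binds growth factors of the TGF-β family. SPARC, also called osteonectin, is a secreted calcium-binding glycoprotein that binds collagens and takes part in the handling and deposition of procollagen. Both are produced by connective tissue cells, and in muscle the FAPs, interstitial cells that can form fibroblasts and adipocytes, are a known source of matrix, whereas SCs are the myogenic stem cells.

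The series compared 3 FAP libraries with 3 SC libraries, lettered A, B and C in both. The cells came from semitendinosus muscle of Belgian Blue cattle and were sorted as CD31-/CD45- cells that were CD29+/CD56- (FAPs) or CD29+/CD56+ (SCs). Both cell types were grown for 72 h on collagen-coated flasks from 2000 cells per cm2, in Ham's F-10 medium with 20% fetal bovine serum and 5 ng/ml bFGF, without any inducer of differentiation. The age and sex of the animal behind each library, and whether the letters stand for animals or for cultures, are not given in the sources used here, so that the spread between libraries may be technical. Poly(A) RNA was counted per gene at 19666738 to 37791193 counts per library, and replicate libraries differed by more than counting error (chi-square per degree of freedom from 4.10 to 27.7). The cell types could not be checked here against their markers, because the identifiers of those genes are not paired with names. The paper reported, from the same RNA sequencing as used here, lower PAX7 and NCAM1 and higher PDGFRA, PPARG and SCARA5 in FAPs than in SCs. NCAM1 encodes CD56, by which the cells were sorted. By RT-qPCR the paper also reported higher PDGFRA and lower PAX7 and NCAM1 in FAPs. By flow cytometry it reported surface PDGFRα selectively in FAPs.

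Decorin took a larger share of the counts in FAPs than in SCs. In FAPs its share of the library total was 1.08% in A (95% Wilson interval 1.08 to 1.09), 1.09% in B (1.09 to 1.10) and 1.11% in C (1.11 to 1.12), from 409882, 372422 and 252758 counts. In SCs it was 0.207% in A (0.206 to 0.209), 0.173% in B (0.171 to 0.175) and 0.199% in C (0.198 to 0.201), from 58481, 33988 and 60045 counts. All FAP libraries lay above all SC libraries, and the lowest FAP share was 5.23 times the highest SC share. The means were 1.10% ± 0.0136 in FAPs and 0.193% ± 0.0181 in SCs (SD, n = 3). These intervals cover counting error within a library only. The handling of PCR copies of a molecule is not given in the sources used here, and copies counted as separate reads would make the intervals too narrow.

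SPARC took more counts than decorin in each library. In FAPs its share was 2.11% in A (95% Wilson interval 2.106 to 2.115), 2.09% in B (2.08 to 2.09) and 1.85% in C (1.85 to 1.86), from 797547, 709867 and 421591 counts. In SCs it was 0.499% in A (0.496 to 0.501), 0.549% in B (0.545 to 0.552) and 0.525% in C (0.523 to 0.528), from 140615, 107883 and 158192 counts. The groups did not overlap, and the lowest FAP share, that of FAPs C, was 3.38 times the highest SC share, that of SCs B. The means were 2.02% ± 0.142 in FAPs and 0.524% ± 0.0249 in SCs (SD, n = 3). Read counts also depend on the length of a transcript, which was not used here, so the larger count of SPARC does not give the order of the transcripts per cell.

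The share of a library is lowered when a few other genes take many reads, and the top 10 genes by counts took 23.2% ± 0.766 of the counts in FAPs and 7.84% ± 0.160 in SCs (SD, n = 3, each library with its own top 10). Levels were therefore also given as CPM (counts scaled to a common library size) on library sizes adjusted with TMM factors, which set the bulk of genes to equal levels between libraries. On this scale decorin was at 13267, 13113 and 13241 CPM in FAPs A, B and C, and at 1736, 1429 and 1651 CPM in SCs A, B and C. SPARC was at 25815, 24995 and 22086 CPM in FAPs A, B and C, and at 4173, 4536 and 4350 CPM in SCs A, B and C. The FAP libraries lay above the SC libraries for both genes here as well. Bulk RNA does not tell fewer cells that express a gene apart from less RNA of it in each cell.

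**Figure D1:**
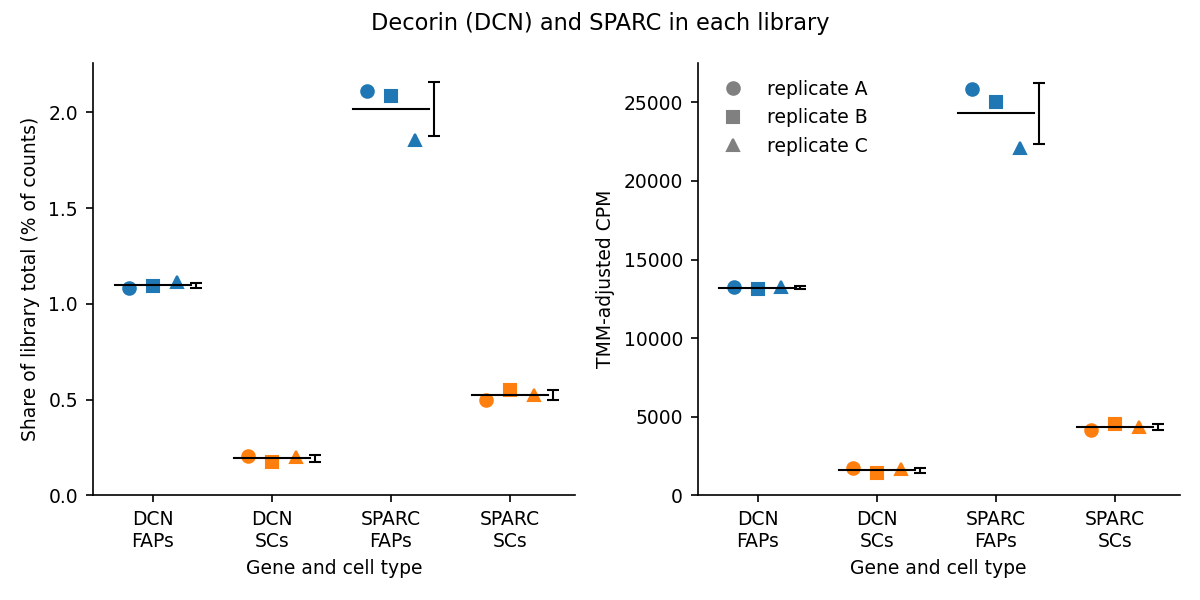
Share of the library total in percent (left) and TMM-adjusted CPM (right) of DCN and SPARC in each FAP (blue) and SC (orange) library, with the mean as a line and the SD (n = 3) as a bar; the symbols give the replicate letters. On both scales the FAP libraries lie above the SC libraries for both genes, with SPARC lowest among FAPs in replicate C and DCN lowest among SCs in replicate B.

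On TMM-adjusted CPM, the mean of decorin was 8.23 times as high in FAPs (13207 ± 82.4 CPM) as in SCs (1605 ± 158 CPM; SD, n = 3), and the ratios of 1 FAP library to 1 SC library lay, over all 9 such pairs, between 7.56 and 9.28. For SPARC the mean was 5.58 times as high in FAPs (24299 ± 1960 CPM) as in SCs (4353 ± 181 CPM; SD, n = 3), with pairs between 4.87 and 6.19. In the edgeR fit across 14039 genes the log2 fold change (log2-FC, FAPs minus SCs) was 3.04 for DCN (standard error 0.0798) and 2.48 for SPARC (standard error 0.0760). The median log2-FC over the tested genes was -0.03. Both genes exceeded the cutoff of an absolute log2-FC above 1 and an FDR below 0.05, at which 14.5% of the tested genes were higher in FAPs. Groups without overlap, with FAPs higher, were found in 36.5% of the tested genes on TMM-adjusted CPM and in 18.6% on the share of the library. Since DCN and SPARC were chosen with this difference known, nothing is read from their passing.

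Of all tested genes, 553 (3.94%) had a larger log2-FC than DCN and 732 (5.21%) a larger one than SPARC. Of the 6 other genes with at least the mean level of DCN in FAPs, 2 had a larger log2-FC than DCN. Of the 3 other genes with at least the mean level of SPARC in FAPs, 2 had a larger log2-FC than SPARC. Of the 10 genes with the highest mean CPM in FAPs, which hold both, 9 exceeded a 2-fold difference in favour of FAPs and 0 in favour of SCs, with a median log2-FC of 2.44. Only 2 of these 10 had a larger log2-FC than DCN, and 4 a larger one than SPARC, DCN among them. Among the 50 highest genes in FAPs, 32 were higher in FAPs by more than 2-fold and the median log2-FC was 1.35. Among the 100 highest it was 1.08, with 54 genes more than 2-fold higher in FAPs. These groups were defined by their level in FAPs, which favours genes higher in FAPs. Ranked by mean CPM in SCs instead, 4 of the 10 highest genes, 12 of the 50 highest and 18 of the 100 highest were higher in FAPs by more than 2-fold, with median log2-FC of 0.24, 0.056 and 0.066.

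**Figure D2:**
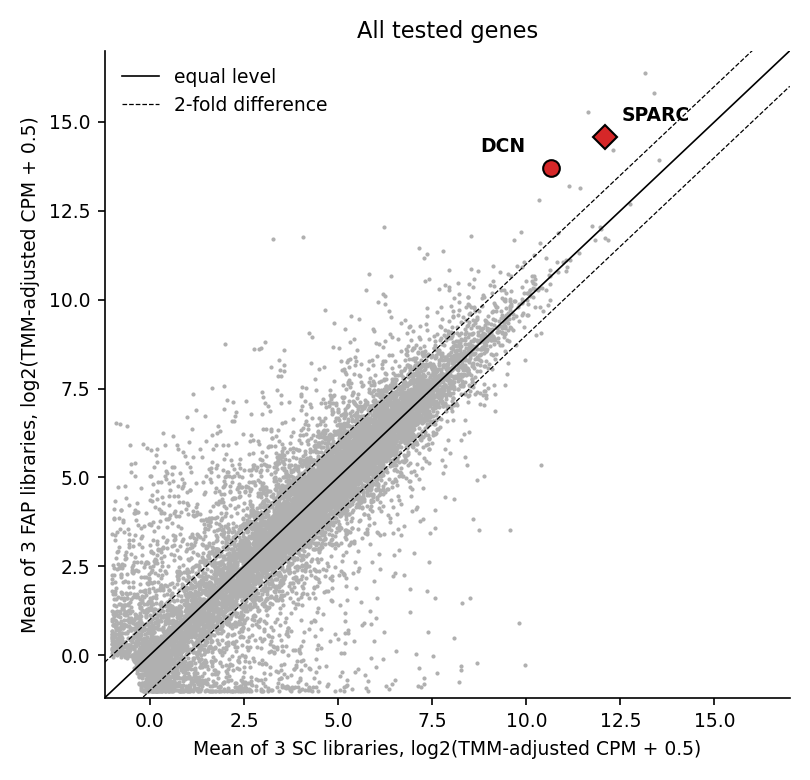
Mean level of each tested gene in the 3 FAP libraries against its mean in the 3 SC libraries, both as log2(TMM-adjusted CPM + 0.5), with the line of equal level (solid) and lines of a 2-fold difference (dashed). DCN and SPARC lie in the upper right, above the upper dashed line, with log2-FC of 3.04 and 2.48.

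The scaling of the libraries moved the size of the difference. On library totals alone the log2-FC was 2.51 for DCN (standard error 0.0739) and 1.94 for SPARC (standard error 0.0691), a ratio of mean shares of 5.68 and 3.85. The median log2-FC over the tested genes was then -0.57, and FAPs were the higher group in 25.3% of the calls in place of 51.6%. At the same cutoff 9.16% of the tested genes were then higher in FAPs. Relative to the median of all tested genes, the log2-FC of DCN was 3.08 with TMM factors and 3.08 with library totals, and that of SPARC was 2.52 and 2.51. Since a change of scaling shifts all genes by about the same amount, this distance from the median gene is fixed by construction and says nothing about the stability of the difference.

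**Figure D3:**
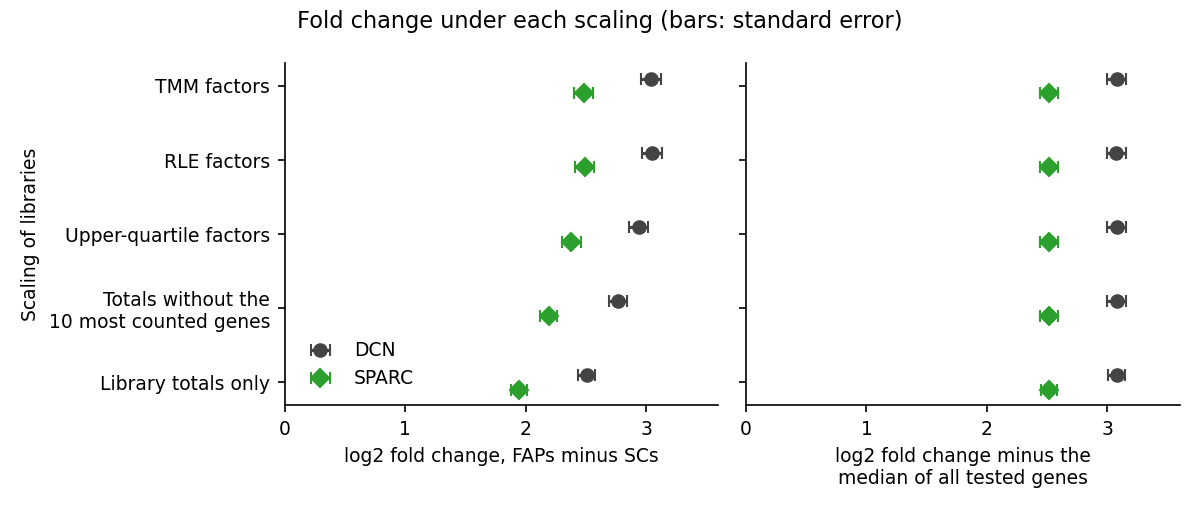
Log2-FC (FAPs minus SCs) of DCN and SPARC under 5 scalings of the libraries, as fitted (left) and after subtracting the median of all tested genes (right); bars give the standard error. The fitted values of DCN run from 2.51 with library totals to 3.05 with RLE factors, and subtracting the median (3.08 in each case) removes the shift that a scaling gives to all genes alike.

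By rank, SPARC was the 4th and DCN the 7th most counted gene in each FAP library. In SCs, SPARC was the 7th most counted gene in each library, and DCN was the 26th in A, the 32nd in B and the 25th in C. SPARC was thus among the 10 most counted genes of SCs at 26.0% of its share in FAPs. In FAPs the most counted gene had from 3.36 to 3.67 times as many counts as SPARC, and in SCs from 2.58 to 2.83 times as many. The rank of DCN in FAPs was set apart from its neighbours, with 1.39 to 1.41 times the counts of the next gene below. In SCs that factor was only 1.004 to 1.03, so that the places of DCN there were separated by small differences. SPARC in SCs A had 1.0003 times the counts of the next gene below, and its place of 7 in that library became 8 when the counts were thinned to the smallest library. Ranks compare read counts, and thus reflect transcript length as well as transcript number.

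**Figure D4:**
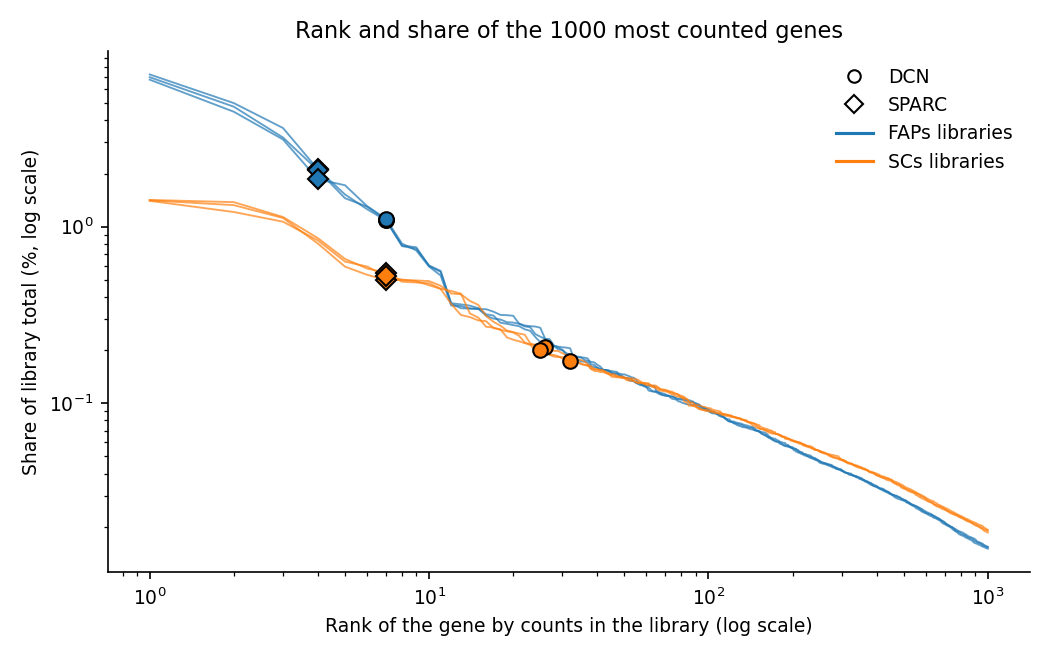
Share of the library total in percent (log scale) of the 1000 most counted genes of each FAP (blue) and SC (orange) library against their rank (log scale), with DCN as circles and SPARC as diamonds. SPARC is at rank 4 in FAPs and 7 in SCs, and DCN at rank 7 in FAPs and 25 to 32 in SCs, where the curves of the cell types have come together.

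Both genes together took 3.20%, 3.18% and 2.97% of the counts in FAPs A, B and C, and 0.706%, 0.721% and 0.725% in SCs A, B and C. The means were 3.11% ± 0.129 in FAPs and 0.717% ± 0.00986 in SCs (SD, n = 3), a difference of 2.40 percentage points. In FAPs both were among the 10 most counted genes and took 13.2% to 13.8% of the counts of those 10. In SCs SPARC alone was among the 10, with 6.42% to 6.84% of their counts. The whole difference in the share of the 10 most counted genes was 15.4 percentage points. Leaving both genes out of the library totals would raise the log2-FC of every other gene by 0.04 on that scale, and the TMM factors computed without them left their own log2-FC at 3.04 and 2.48.

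Neither gene was near absence in SCs. The mean level of DCN in SCs was 12.2% of that in FAPs on TMM-adjusted CPM, with 13.1% in SCs A, 10.8% in SCs B and 12.5% in SCs C. For SPARC the level left was 17.9%, with 17.2% in SCs A, 18.7% in SCs B and 17.9% in SCs C. On shares of the library the levels left were 17.6% for DCN and 26.0% for SPARC. Among the 113 genes whose FAP mean reached 1000 CPM, the median level left in SCs was 48.9% on TMM-adjusted CPM, and the lowest was 0.274%. Of these genes, 17 had a lower level left than DCN and 22 a lower one than SPARC. These genes were picked by their level in FAPs, which favours a low level left in SCs. In SCs only 2 genes with a mean CPM at or above that of DCN had a larger log2-FC than DCN, of the 25 genes at or above its level, DCN included. SPARC held place 8 by mean CPM in SCs, and 1 gene at or above its level there had a larger log2-FC. The share of RNA in SC libraries that came from FAPs was not tested for these genes.

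The difference between cell types was larger for decorin than for SPARC. Within a library the ratio of both counts does not depend on the scaling, and transcript length cancels when this ratio is compared between libraries. There were 0.514, 0.525 and 0.600 DCN counts per SPARC count in FAPs A, B and C, and 0.416, 0.315 and 0.380 in SCs A, B and C. The lowest FAP ratio was above the highest SC ratio, with means of 0.546 ± 0.0466 in FAPs and 0.370 ± 0.0511 in SCs (SD, n = 3). On the log2 scale the difference was 0.57, which corresponds to a 1.48-fold higher ratio in FAPs, and over the 9 pairings of libraries across cell types it ranged between 0.31 and 0.93. It comes from the contrast by which the genes were chosen and was not tested. How many other gene pairs have ratios without overlap was not counted. Of single genes, 36.5% had no overlap with FAPs higher on TMM-adjusted CPM, so nothing particular to this pair is read from the separation.

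The replicates of each cell type differed in another way for each gene. Decorin was nearly constant in FAPs, with a coefficient of variation (CV) of 0.624% on TMM-adjusted CPM and of 1.24% on shares, where counting error alone gives 0.174%. Of the 297 genes whose FAP mean was 500 CPM or more, 4 had a smaller CV on TMM-adjusted CPM and 20 on shares, and the median CV was 3.44% and 3.36%. In SCs the CV of decorin was 9.87%, above the median of 4.54% for the 203 genes at that level, and SCs B was lowest. SPARC varied the other way. Its CV was 8.06% in FAPs, larger than in 274 of the 297 genes, with FAPs C lowest, and 4.16% in SCs, near the median. Each CV was at least 3.59 times that of counting error alone. Each rests on 3 libraries only. The library that was lowest, FAPs C for SPARC and SCs B for decorin, also had the fewest counts of its cell type (22737901 and 19666738). Whether the depth bears on these spreads was not tested.

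The deviations of decorin and SPARC from the mean of their cell type were set side by side for each library. In SCs A decorin was 0.12 above its mean of log2 CPM and SPARC was 0.06 below, whereas in SCs B decorin was 0.16 below (a deviation of -0.16) and SPARC 0.06 above. In FAPs A both were above their means, decorin by 0.0065 and SPARC by 0.091, and both were highest among the FAP libraries there on TMM-adjusted CPM. In FAPs B decorin deviated by -0.01 and SPARC by 0.044, and in FAPs C decorin by 0.0037 and SPARC by -0.13. The order of the 3 SC libraries by DCN was the reverse of their order by SPARC, on TMM-adjusted CPM and on shares. In FAPs this was not so on TMM-adjusted CPM. On shares the orders were reversed in FAPs too, with FAPs A lowest for DCN (1.08%) and highest for SPARC (2.11%). The contrast between the cell types in this order thus depends on the scaling. With 3 libraries in each cell type no correlation was computed.

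**Figure D5:**
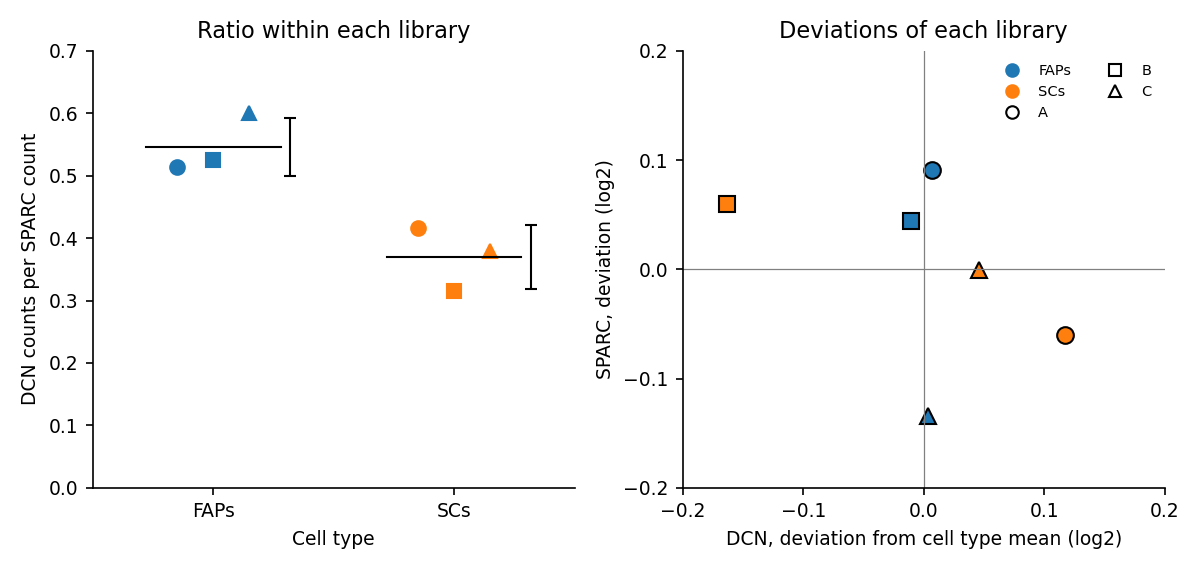
DCN counts per SPARC count in each library (left), with the mean as a line and the SD (n = 3) as a bar, and the deviation of each library from the mean of its cell type in log2 TMM-adjusted CPM, SPARC against DCN (right), with FAPs in blue and SCs in orange. The FAP ratios, from 0.514 to 0.600, lie above the SC ratios, from 0.315 to 0.416, and the FAP deviations spread along SPARC while the SC deviations spread mainly along DCN.

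Genes with a pattern like that of each gene were sought among the other 3820 genes whose FAP mean reached 50 CPM, by the distance between profiles of log2(CPM + 0.5) over the 6 libraries, each centred on its own mean. The nearest to DCN was ENSBTAG00000038112, at a distance of 0.145, with 335 ± 6.15 CPM in FAPs and 43.4 ± 3.21 CPM in SCs (SD, n = 3) and a log2-FC of 2.95. The nearest to SPARC was ENSBTAG00000018598, at a distance of 0.0817, with 404 ± 35.9 CPM in FAPs and 72.8 ± 2.26 CPM in SCs (SD, n = 3) and a log2-FC of 2.47. Both are counted far less than DCN and SPARC themselves, and their names were not determined here. The distance between DCN and SPARC was 0.771. By this measure 89 genes (2.33%) were nearer to DCN than SPARC was, and 151 genes (3.95%) were nearer to SPARC than DCN was. These profiles hold the contrast between the cell types by which DCN and SPARC were chosen. The distance between them thus largely restates that their log2-FC differ, and the nearest genes are those with a like log2-FC. The cutoff of 50 CPM was set on the FAP mean only, which favours genes higher in FAPs, and the gene nearest to DCN was below it in SCs. Nothing further is read from these distances.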

How the data were processed

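The RNA-seq data comprised 3 FAP and 3 SC libraries, grouped by the sample labels. The authors prepared stranded mRNA libraries, sequenced single-end reads, aligned them with STAR 2.7 to bosTau9 and used featureCounts to count reads on Ensembl genes. The deposited table holds raw counts, without normalization or filtering. The handling of strand, multi-mapping reads and overlapping genes is not given in the sources used here, so reads shared with near-identical or overlapping genes are uncertain. Other per-sample columns in the table numbered 0.

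From these counts, shares of the library total were computed with 95% Wilson intervals (scipy 1.17.1). Genes were filtered with filterByExpr (minimum count 10; 14039 genes kept), scaled with TMM factors and fitted by edgeR 4.0.16 with its quasi-likelihood test (R 4.3.3; cell type as the only term, prior count 0.125, Benjamini-Hochberg adjustment), with the cutoffs of the study's methods. A standard error is the log2-FC divided by the square root of the F statistic. The fit was tested on simulated data, where 99.5% of 200 genes changed by 2 on the log2 scale were recovered, with 1 false call among 12675 genes. Both simulated cell types started from the SC means, for genes above 1 CPM there, and the 200 changes went up or down at random. The simulation thus held far fewer changed genes than were called in the data and does not test the scaling between the cell types. Alternatives were limma-voom (limma 3.58.1), DESeq2 1.42.0, other scalings, no filter, thinning, the replicate letter and each library left out.

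The genes and lists were chosen with earlier results of these data known. Beside DCN and SPARC, the rule for named genes took the gene nearest to each by profile. Lists of related proteoglycans, matricellular proteins, binding partners, glycosylation enzymes and cell type markers were not used. The gene table given (37063 genes, another assembly) has no Ensembl identifiers, so 0 identifiers matched. For the same reason no values per transcript length were computed. That table also holds no protein or promoter sequence.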

Additional observations from a re-analysis of the deposited data

How the results depend on the processing

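The log2-FC of DCN and SPARC kept its direction under each of the 17 alternatives run. Both genes were chosen with this direction known. The lowest FAP share was 5.23 (DCN) and 3.38 (SPARC) times the highest SC share, so leaving out a library could not reverse it. Nothing is therefore read from the kept direction. The size of the log2-FC moved by more than the spread between replicates only in 2 settings. These were library totals (2.51 and 1.94) and totals without the other genes among the 10 most counted over all 6 libraries (2.76 and 2.19). The latter was added once the data had been seen. Those totals kept the gene in question and left out the other of DCN and SPARC, so each gene had its own total. The level left in SCs moved to 17.6% (DCN) and 26.0% (SPARC) on library totals and to 14.7% and 21.9% without the other most counted genes. For SPARC it also moved to 19.2% with upper-quartile factors and to 17.1% without FAPs replicate C. The 10 most counted genes took a larger part of the library totals in FAPs than in SCs. With each library left out in turn, the log2-FC ran from 2.96 to 3.10 for DCN and from 2.45 to 2.56 for SPARC, the level left from 11.7% to 12.8% and from 17.1% to 18.5%, and the difference between both log2-FC from 0.46 to 0.66. In these 6 fits 4009 to 4086 genes were called, with FAPs higher in 2073 to 2167 and SCs higher in 1910 to 1982. Of 3943 called genes, 2035 were higher in FAPs and 1908 in SCs, against 1286 and 3794 on library totals. Without a fold change cutoff 10001 genes passed, 4871 higher in FAPs and 5130 in SCs. Shares of totals without the other most counted genes, again with a total of its own for each gene, were 1.41% for DCN and 2.56% for SPARC in FAPs. For SPARC in SCs the share was 0.560%.

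The deviations of same-lettered libraries correlated across genes at r = 0.322 (A), 0.0246 (B) and 0.260 (C). Of the 6 libraries, 5 correlated best with the library of their own letter. The main fit held cell type only and did not take the letters as pairs. Whether same-lettered libraries share an animal is not given in the sources used here and was not tested. With the replicate block the log2-FC was 3.05 for DCN and 2.48 for SPARC, and 3942 genes were called.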
